A study of Mus musculus with 12 samples.

Results

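Transcripts of 9 cytosolic nucleic acid sensor genes were compared between mouse airway eosinophils sorted as positive and as negative for the surface receptor TREM-1 within each lavage. The genes were taken by their symbols from the deposited count table, in which 9 of 39666 genes matched. They are Rigi, Ifih1, Dhx58, Mavs, Cgas, Sting1, Zbp1, Eif2ak2 and Adar, and all 9 passed the filter on low counts that left 20613 genes for testing. All libraries came from wild-type (WT) C57BL/6 mice aged 8 to 12 weeks with allergic airway inflammation. Sensitization on days 0 and 7 used 20 µg ovalbumin with 4 mg alum, challenge was a 40 minutes exposure to nebulized 1% ovalbumin on each of days 16 to 18, and day 19 was the day of harvest. Lavage fluid was pooled, and the eosinophil gate asked for high side scatter, CD45, CD11b and Siglec-F, with CD11c and Ly6G at low to middle levels. Each pool gave a TREM-1- and a TREM-1+ library, so that 6 lavages made 12 libraries, and no untreated mice were part of the comparison. Whether different mice went into each of the 6 pools is not said in the labels, and p-values refer to the spread among these pools, which may be technical.

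As background, cells detect viral or misplaced nucleic acid in the cytosol with a small set of proteins. RIG-I (Rigi), MDA5 (Ifih1) and LGP2 (Dhx58) are RNA helicases, and the first pair signals through the mitochondrial adaptor MAVS. The DNA-binding enzyme cGAS makes a cyclic dinucleotide that activates STING. ZBP1 binds nucleic acid in the left-handed Z form, the kinase PKR (Eif2ak2) halts translation when it binds double-stranded RNA, and ADAR1 (Adar) edits adenosine to inosine in double-stranded RNA. MAVS and STING both lead to interferons, and many of the sensor genes are themselves induced by interferon. That induction runs through the interferon-stimulated response element, a promoter sequence bound by the transcription factor complex ISGF3 and by interferon regulatory factors.

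Stretches whose letters match the core of that element are shown for the 4 of these genes in which a match was found. These 4 genes were among those lower in TREM-1+ eosinophils, and a part of the matches in that was not tested. Promoter windows of 300 bases, 250 before and 50 after each annotated start, came from RefSeq (build GRCm38.p6) and were found for 6 of the 9 genes. Dhx58, Zbp1 and Sting1 had no entry. The core GAAANNGAA was searched on both strands, and so was the longer repeat GAAANNGAAA, every match of which also holds a core match. Capitals mark the matched bases, each stretch is written 5′ to 3′ on the gene's strand, and positions count from 1 at the annotated start.
Rigi, chr4:40239804-40239833 (minus strand), positions 3 to 12, match on the opposite strand: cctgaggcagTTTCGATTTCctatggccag
Ifih1, chr2:62646206-62646235 (minus strand), positions 33 to 42: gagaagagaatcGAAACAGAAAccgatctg
Eif2ak2, chr17:78882532-78882561 (minus strand), positions 19 to 33, with 2 overlapping cores: ccgccggGAAAACGAAACAGAAgagaaccg
Adar, chr3:89730738-89730767 (plus strand), positions 34 to 42 of the last of its 3 listed starts: ttttcaaggaaacGAAAGTGAActctgggg

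Each of these 4 stretches lay just after the annotated start, in transcribed sequence. A further core match lay 112 bases before the start of Ifih1 and another at the far upstream end of the same Adar window. The core was present in 4 of the 8 windows of these genes and in 8.56% of 32851 promoter windows of the same length. The longer repeat was present in 3 of the 8 windows, those of Rigi, Ifih1 and Eif2ak2, and in 3.44% of all windows. The windows of Mavs and Cgas and the other 2 windows of Adar held no match, which says only that these letters were not in those windows. A match is a description of the sequence and was not tested as a binding site. The core TTCNNNGAA, which reads the same on both strands and is the form bound by STAT dimers, was found in 2 of the 8 windows, one of Adar and that of Eif2ak2, and in 8.30% of all windows.

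The TREM-1- libraries held from 16513387 to 21234053 counts. The TREM-1+ libraries held from 8626701 to 19274912, fewer than their partner in every lavage. Levels are given in CPM, counts divided by a TMM-scaled library total (trimmed mean of M values), and the transcript of the sorted antigen, Trem1, ran from 18.4 to 41.9 CPM in TREM-1- and from 73.8 to 128 CPM in TREM-1+ libraries. Eosinophil markers were plentiful, their 8 genes summing to 4110 to 6420 CPM in TREM-1- and 4110 to 6460 CPM in TREM-1+ libraries. Siglecf, Ccr3, Il5ra and Cebpe were called lower, by 0.11 to 0.27 on the log2 scale, and Prg2 and Alox15 higher, by 0.34 and 0.19. When libraries were scaled by their totals alone, Siglecf, Il5ra, Cebpe and Adgre1 (from the macrophage and monocyte list) were not called, and Cebpe changed sign. Of 8 neutrophil markers 5 were called higher and 1 lower. Their sum was 1270 to 1880 CPM in TREM-1- and 987 to 1830 CPM in TREM-1+ libraries, lower in TREM-1+ in 6 of 6 lavages, nearly all of it Retnlg. Retnlg fell by 0.38 on the log2 scale, whereas S100a9 (15.5 to 53.5 CPM in TREM-1- and 57.0 to 132 CPM in TREM-1+ libraries), S100a8, Ltf, Csf3r and Ly6g rose, the last 4 to at most 23.7 CPM. Of 10 macrophage and monocyte markers 3 were higher and 2 lower (summed 1700 to 2340 and 1740 to 2310 CPM). Fn1 (up to 154 CPM in TREM-1+ libraries), Ccr2 and C1qb rose, and Adgre1 and Ly6c2 fell. Adgre1 had 798 to 1280 CPM in TREM-1- and 691 to 1070 CPM in TREM-1+ libraries. Ly6c2 had 493 to 1100 and 382 to 946 CPM. Csf1r, at 181 to 255 and 170 to 239 CPM, was not called. Chil3 reached 575 CPM and was not called, and Marco was at 0.504 CPM or less. Of 6 T and innate lymphoid markers 5 were higher (6.02 to 39.2 and 5.72 to 72.2 CPM), and of the listed B cell, NK cell, dendritic and epithelial markers 0 were called, with sums of at most 15.4, 20.3, 27.4 and 58.5 CPM. The summed level was higher in TREM-1+ in 6 of 6 lavages for the eosinophil, NK cell and dendritic lists. It was higher in 5 of 6 for the T and innate lymphoid list and in 3 of 6 for the macrophage and monocyte list. For the B cell list it was higher in 2 and for the epithelial list in 1. No listed marker was at 0 in every library. The part of these cells in the sensor results was not tested, and in sorted bulk cells a smaller share of expressing cells and less RNA per cell cannot be told apart. The mean chi-square per gene between libraries of a fraction was 5.26 and 6.88 for lavages 1 and 2 and 20.6 or more for all other pairs, where counting noise alone gives about 1.

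Of the 9 sensor genes, 6 were lower in TREM-1+ than in TREM-1- eosinophils when both fractions of a lavage were set side by side, and 0 were higher. The 6 were Dhx58, Zbp1, Rigi, Ifih1, Eif2ak2 and Adar, with falls of 31.0%, 25.2%, 23.8%, 22.6%, 18.6% and 9.70%. Mavs, Cgas and Sting1 did not pass the test. Genes were called at a Benjamini-Hochberg adjusted p below 0.05 in edgeR's quasi-likelihood test over all 20613 genes, with the lavage as a block. By that rule 6.03% of all tested genes were called lower and 2.72% higher. The median log2 fold change was -0.30 over the 9 genes and 0.01 over all genes tested.

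**Figure D1:**
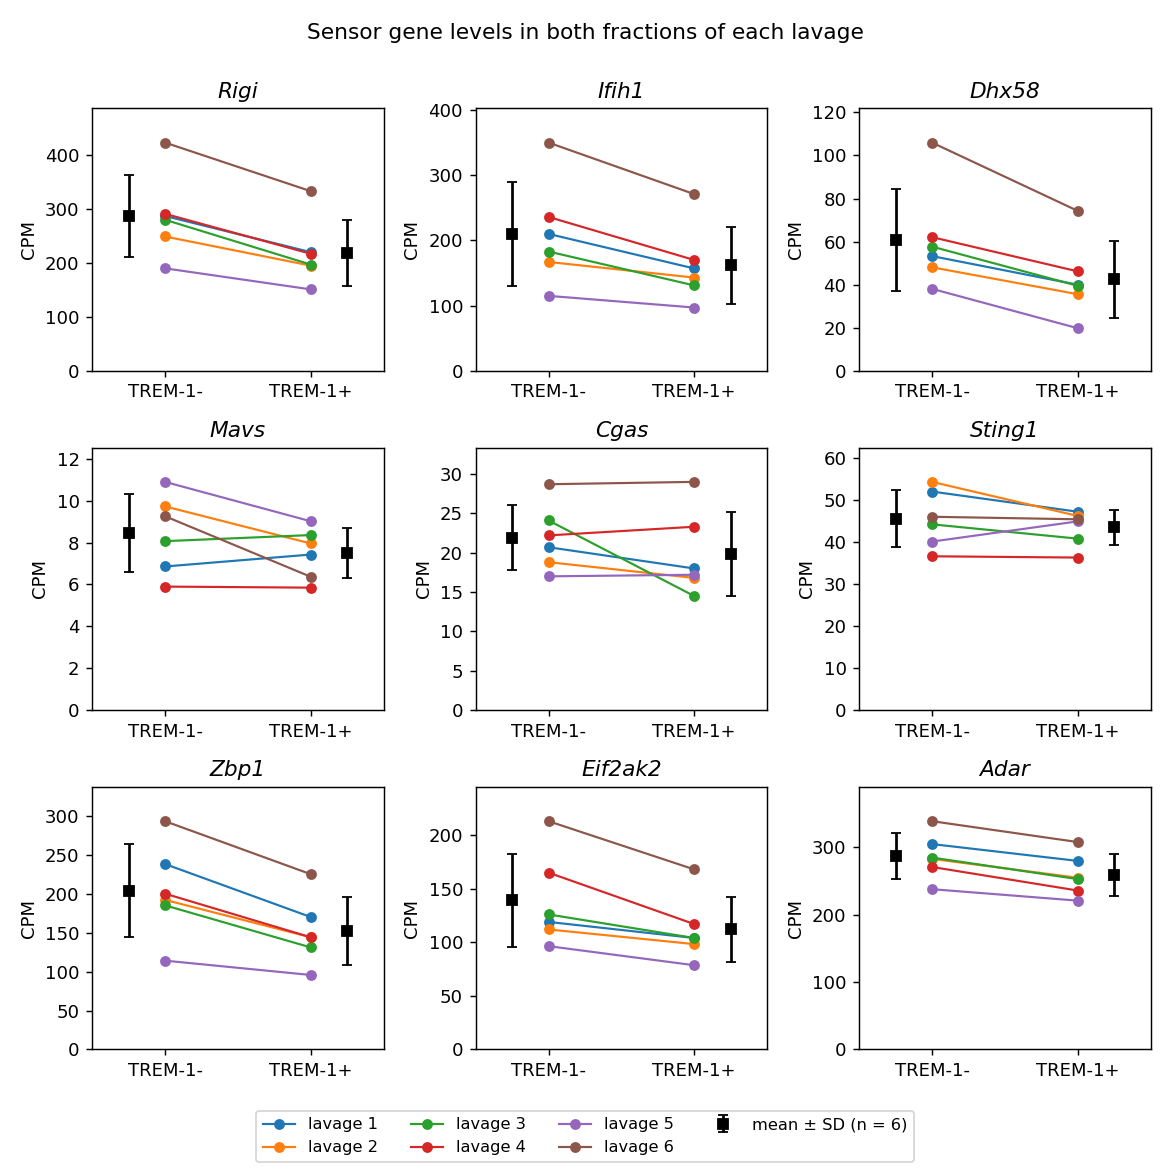
Level of each sensor gene in CPM (y axes from 0) in the TREM-1- and TREM-1+ library of each lavage; lines join the fractions of a lavage, and black squares with bars are the mean and SD of 6 libraries. In Rigi, Ifih1, Dhx58, Zbp1, Eif2ak2 and Adar every line falls, while those of Mavs, Cgas and Sting1 go both ways.

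The differences were visible within lavages and not between the pooled groups. The same 6 genes were lower in 6 of 6 lavages, a pattern seen in 7.62% of all tested genes. In 0 of the 9 genes did all TREM-1+ libraries lie below all TREM-1- libraries, as was the case for 0.616% of tested genes. Levels of the sensors differed between lavages by more than between fractions. Rigi, for instance, spanned 2.23-fold across the TREM-1- libraries, whereas its fold between fractions of a lavage stayed between 0.703 and 0.792. When the lavage was left out of the model, 0 of the 9 genes were called, beside 0.306% of all tested genes called lower.

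The RNA helicases were lower as a trio. Rigi, which encodes the receptor for short double-stranded RNA with a triphosphate end, had 190 CPM in the lowest, 284 CPM in the median and 423 CPM in the highest TREM-1- library. Its TREM-1+ libraries ran from 151 through a median of 207 to 333 CPM. The groups overlapped, and lavage 6 was the highest and lavage 5 the lowest in both. Rigi fell by 0.39 on the log2 scale (SE 0.03, edgeR adjusted p = 5.98e-10). The paired log2 differences lay in a narrow range, from -0.51 in lavage 3 to -0.34 in lavages 5 and 6.

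Ifih1, which encodes the receptor for long double-stranded RNA, varied the most between TREM-1- libraries, from 115 through a median of 196 to 350 CPM. In TREM-1+ libraries it ranged from 97.1 through 150 to 271 CPM. Again lavage 6 was high and lavage 5 low in both fractions. Ifih1 fell by 0.37 on the log2 scale (SE 0.04, edgeR adjusted p = 2.46e-08), with paired log2 differences from -0.49 in lavage 3 to -0.23 in lavage 2.

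Dhx58, whose product LGP2 lacks the signalling domains of the other helicases and tunes their response, had the largest fall of the 9 genes over all lavages, but not without lavage 5, where it was level with Zbp1 (-0.46 and -0.45), nor in lavages 1 and 2 alone. It had 38.1 CPM in the lowest, 55.5 in the median and 106 in the highest TREM-1- library, and 19.8, 39.8 and 74.3 CPM in the TREM-1+ libraries. The lowest TREM-1+ value, in lavage 5, lay far under its partner, whereas the other 5 lavages differed less. Dhx58 fell by 0.54 on the log2 scale (SE 0.06, edgeR adjusted p = 1.51e-07). The paired log2 difference was -0.94 in lavage 5 and between -0.54 and -0.41 elsewhere, and without lavage 5 the fold change was -0.46.

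Mavs, the gene of the adaptor that RIG-I and MDA5 share, had the lowest level of the 9 genes. Its counts ran from 58 to 200 per library. TREM-1- libraries held from 5.90 through 8.66 to 10.9 CPM and TREM-1+ libraries from 5.85 through 7.70 to 9.02 CPM. The gene was lower in 4 lavages and higher in 2, and the log2 fold change of -0.16 had a 95% interval from -0.44 to 0.11 (edgeR adjusted p = 0.628). At this depth a fall of the size seen in Rigi lies within that interval, so the data do not show that Mavs was alike in the fractions.

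The DNA-sensing pair did not pass the test. Cgas, which encodes the DNA-activated cyclase, had 17 through 21.4 to 28.7 CPM in TREM-1- and 14.5 through 17.6 to 29.0 CPM in TREM-1+ libraries. It was lower in 3 lavages and higher in 3. Its log2 fold change was -0.16 (95% interval -0.36 to 0.03, edgeR adjusted p = 0.396). Much of that came from lavage 3, where the paired log2 difference was -0.73, and without lavage 3 the value was -0.06. The 95% interval over all lavages holds the log2 fold changes of Eif2ak2 and Adar. The data therefore do not show that Cgas was alike in the fractions.

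Sting1 encodes the membrane receptor for the cyclic dinucleotide. It had 36.6 through 45.1 to 54.3 CPM in TREM-1- and 36.3 through 45.1 to 47.2 CPM in TREM-1+ libraries. It was lower in 5 of 6 lavages by small amounts and had a log2 fold change of -0.06 (95% interval -0.19 to 0.06, edgeR adjusted p = 0.706). That interval does not reach the log2 fold change of Rigi, Ifih1, Dhx58, Zbp1 or Eif2ak2, but it holds that of Adar. The sign of the estimate was not stable, being 0.06 with library totals as the scaling 0.00 in lavages 3 to 6 alone and -0.18 in lavages 1 and 2 alone, where Eif2ak2 had the same value.

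Zbp1, which encodes the Z-form nucleic acid sensor that can engage the death kinase RIPK3, was lower in 6 of 6 lavages. TREM-1- libraries held 114 through 196 to 293 CPM and TREM-1+ libraries 95.6 through 144 to 225 CPM. The ranges overlapped, with lavage 6 high and lavage 5 low. Zbp1 fell by 0.42 on the log2 scale (SE 0.04, edgeR adjusted p = 9.49e-10). Its paired log2 difference was smallest in lavage 5 (-0.26) and between -0.50 and -0.38 in the others.

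Eif2ak2 and Adar, whose products act on double-stranded RNA, both fell. Eif2ak2 had 96.4 through 122 to 213 CPM in TREM-1- and 78.6 through 104 to 168 CPM in TREM-1+ libraries. It fell by 0.30 on the log2 scale (SE 0.04, edgeR adjusted p = 4.39e-06), with paired differences from -0.50 in lavage 4 to -0.18 in lavage 2. Adar was among the more abundant of the 9 genes, at 238 through 284 to 339 CPM in TREM-1- and 221 through 254 to 308 CPM in TREM-1+ libraries. Its fall was small and even, 0.15 on the log2 scale (SE 0.03, edgeR adjusted p = 0.00207), with paired differences from -0.19 to -0.11. The 95% intervals of both genes, -0.38 to -0.21 and -0.21 to -0.08, met only at their ends, and the difference between them was not tested. Adar has constitutive and interferon-inducible promoters, and counts per gene do not separate their transcripts.

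**Figure D2:**
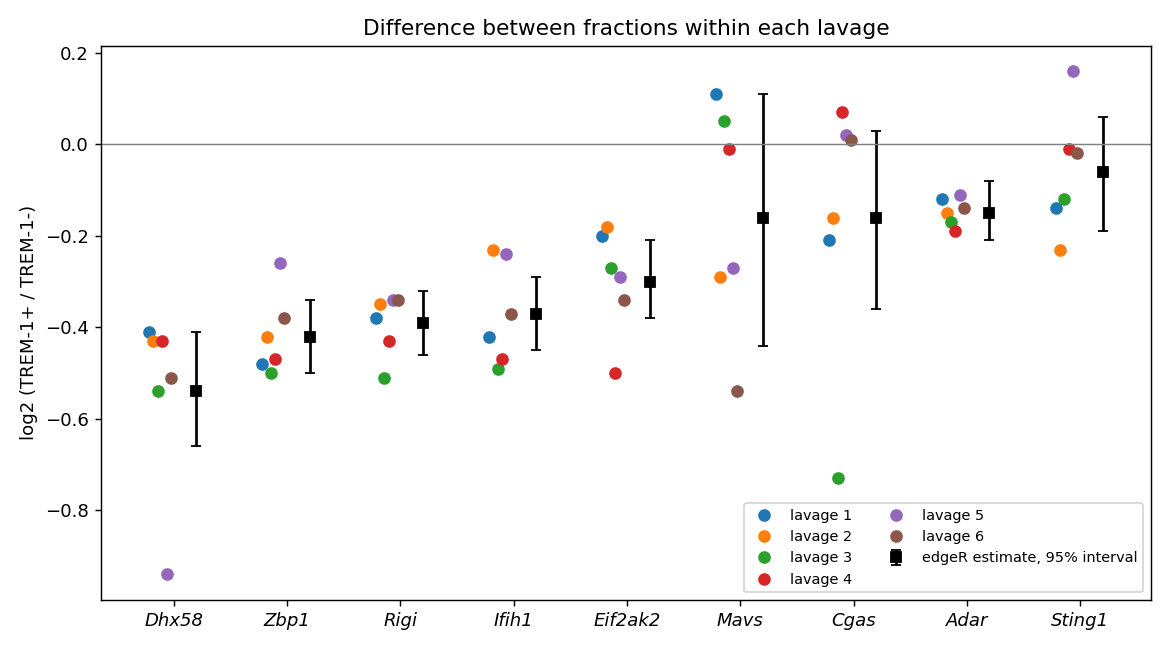
Log2 ratio of the TREM-1+ to the TREM-1- library for each sensor gene (y axis), with 1 coloured point per lavage and the edgeR estimate with its 95% interval in black. All points of Dhx58, Zbp1, Rigi, Ifih1, Eif2ak2 and Adar lie below 0; single lavages stand apart in Dhx58 (lavage 5, -0.94) and Cgas (lavage 3, -0.73).

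**Figure D3:**
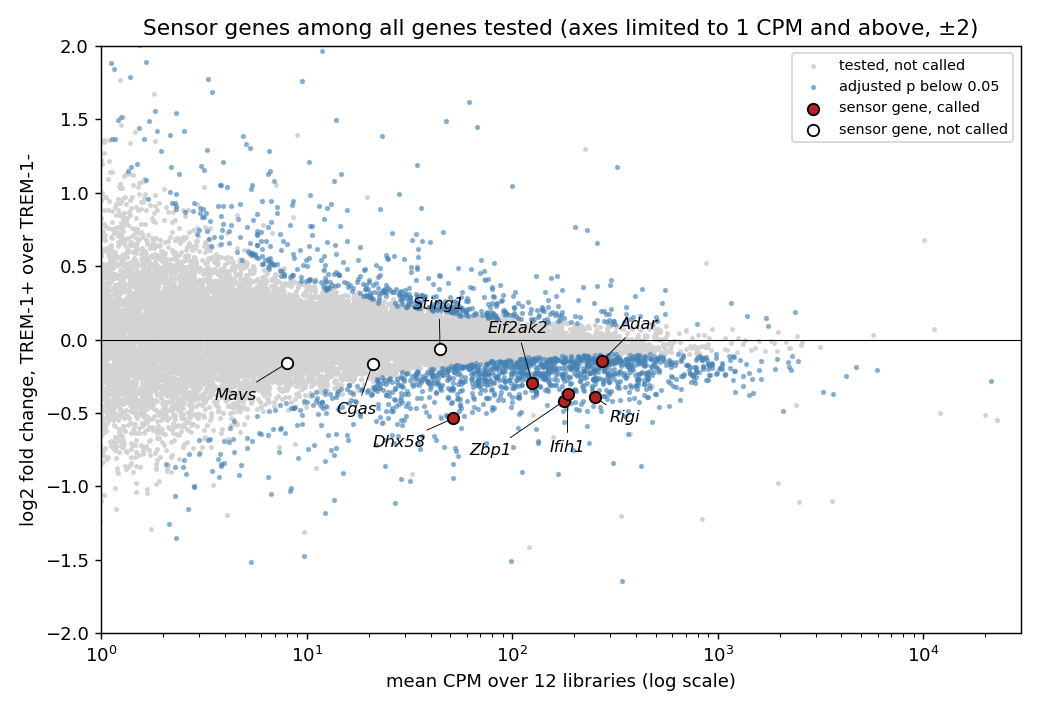
Log2 fold change between fractions (y axis) against mean CPM (x axis, log scale) for tested genes at 1 CPM or above and within ±2, with called genes in blue and the sensor genes as larger circles (red if called, white if not). The 6 called sensor genes lie among the lower called genes, and the 3 that were not called include the least abundant, Mavs.

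Small differences depended on how libraries were scaled. The fold changes above use TMM factors. With library totals alone the median of all genes moved to 0.13. The log2 fold changes were then -0.41 for Dhx58, -0.29 for Zbp1, -0.26 for Rigi, -0.24 for Ifih1 and -0.17 for Eif2ak2. These 5 were still called (edgeR adjusted p from 7.37e-05 to 0.0271), beside 1.79% of all tested genes called lower. Adar was then at -0.02 and was not called (edgeR adjusted p = 0.851).

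Lavages 1 and 2 were closer to each other than other lavages, and both sets were therefore also fitted apart. In lavages 1 and 2 alone 5 of the 9 genes were called lower (6.16% of tested genes were), and in lavages 3 to 6 alone all 6 were (4.05%). Over all genes the first fit called 1567 and the second 1176. The p-values of the first refer to the small spread between lavages 1 and 2, which may be technical. Dhx58 was at -0.42 in the first set and -0.59 in the second, Rigi at -0.36 and -0.40, and Zbp1 at -0.44 and -0.40. Eif2ak2 was at -0.18 in the first set and -0.35 in the second. Adar, at -0.13, was not called in lavages 1 and 2 (edgeR adjusted p = 0.0698). Other analyses (DESeq2, limma-voom, limma-trend on the deposited log2 CPM, no filter, a mean of at least 5 CPM, and a filter by fraction) called the same number, 6, beside 6.11%, 6.09%, 6.34%, 4.49%, 11.5% and 6.72% of all genes they tested as lower. So did leaving out lavages 1 to 6 in turn, beside 5.06%, 4.93%, 5.54%, 4.98%, 5.71% and 5.21%, and leaving out both lavages 3 and 4, beside 4.83%. A direct test of the difference between the sets called 0 of the 9 genes, with 0 at an unadjusted p below 0.05 and 2 of all tested genes called (0.0097%). Its smallest unadjusted p among the 9 was 0.0718, for Eif2ak2.

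Levels of different genes were compared as CPM per kilobase of the longest GENCODE transcript. In TREM-1- eosinophils the order was Rigi (74.0 ± 19.7 CPM per kilobase, SD, n = 6), Zbp1 (61.2 ± 17.9), Adar (48.5 ± 5.73), Ifih1 (38.4 ± 14.6), Eif2ak2 (32.1 ± 9.98), Dhx58 (25.2 ± 9.79), Sting1 (19.8 ± 2.94), Cgas (5.41 ± 1.02) and Mavs (2.76 ± 0.61). From Rigi to Sting1, neighbours in this order lay within their SD of each other, whereas Sting1 and Cgas, and Cgas and Mavs, were apart. Within single libraries of TREM-1- eosinophils Rigi still exceeded Zbp1 in 6 of 6, Eif2ak2 exceeded Dhx58 in 6 of 6, each pair of neighbours from Zbp1 to Eif2ak2 kept its order in 5 of 6, and Dhx58 exceeded Sting1 in 3 of 6. In TREM-1+ eosinophils Sting1 (18.9 ± 1.81) came ahead of Dhx58 (17.6 ± 7.42), an order seen in 4 of 6 libraries, Zbp1 exceeded Adar in 3 of 6, and all other ranks were as in TREM-1- eosinophils. The RNA helicases were thus present at many times the level of the adaptor transcript, with Rigi at 56.5 ± 15.8 and Mavs at 2.45 ± 0.395 CPM per kilobase in TREM-1+ eosinophils.

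**Figure D4:**
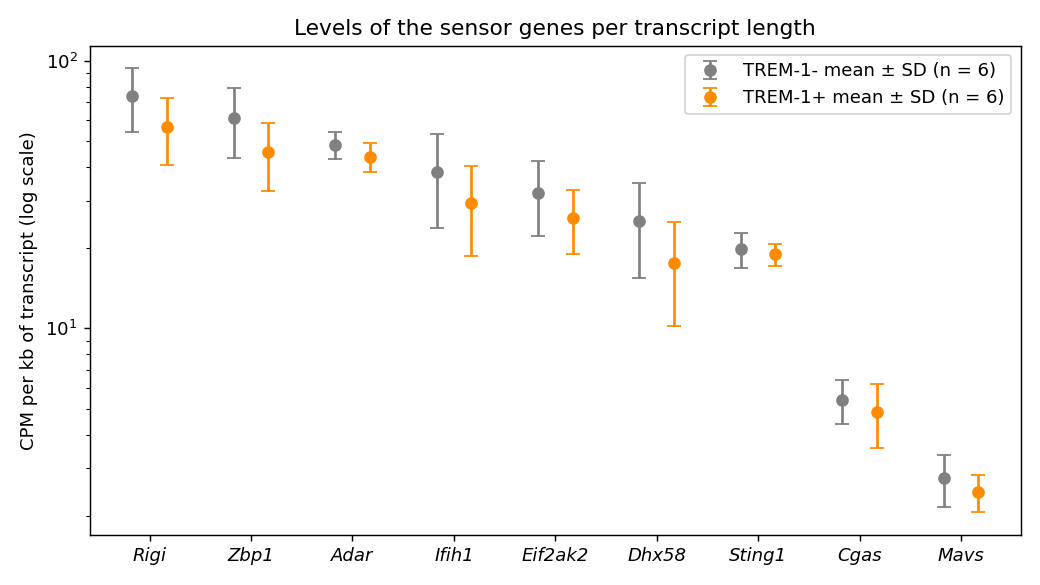
Levels of the sensor genes per kilobase of transcript (y axis, log scale) in TREM-1- (grey) and TREM-1+ (orange) eosinophils, as mean and SD of 6 libraries. Rigi stands highest and Mavs lowest in both fractions, and the bars of neighbouring genes from Rigi to Sting1 overlap.

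The genes also differed in how they varied between lavages. In both fractions 7 of the 9 genes were highest in lavage 6, and 6 were lowest in lavage 5. These 7 were the called genes together with Cgas, which spanned 1.69-fold across TREM-1- libraries. Sting1 and Adar varied little between lavages, 1.48-fold and 1.42-fold across TREM-1- libraries, against 3.04-fold for Ifih1. Mavs went another way and was highest in lavage 5 and lowest in lavage 4 in both fractions.

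Genes with the most similar pattern were sought among 10962 others with a mean of at least 5 CPM, by Pearson r of log2 CPM over the 12 libraries. These libraries are 6 pairs and share lavages, so r is given as a description. Closest to Rigi were Oasl1 (r = 0.989), Usp18 and Slfn5 (both 0.988). Closest to Ifih1 were Slfn8 (0.994), Mov10 and Trim30d (both 0.988), and closest to Dhx58 were Isg15 (0.983), Usp18 (0.981) and Helz2 (0.979). Irgm2 (0.991) and Igtp (0.988) came closest to Zbp1, Rnf213 (0.991), Parp14 (0.986) and Herc6 (0.984) to Eif2ak2, and Znfx1 (0.980), Tap1 (0.977) and Usf1 (0.974) to Adar. Among these, Oasl1, Usp18, Isg15 and Tap1 are known interferon-induced genes, given as examples and not as a full count. The closest to Sting1 were Kdm4a (0.972), Gna13 (0.961) and Ptpn6 (0.960), and those to Cgas were Gm5431 (0.968), 9930111J21Rik2 (0.941) and Gm38412 (0.910). Mavs had the loosest matches, Gm44126 (0.895), Eci2 (0.870) and Ddx46 (0.841).

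Other genes of the sensing pathways were read in the same fit from 8 lists, which hold 133 tested genes. Of these, 27 were called lower and 7 higher, beside 6.03% and 2.72% of all tested genes. The balance turned round with library totals alone, to 13 lower and 23 higher, beside 1.79% and 8.61% of all tested genes. Of 22 tested co-factors and regulators of the RNA sensors, 8 were lower and 1 higher, with a median log2 fold change of -0.08. Usp18, which removes ISG15 and dampens the interferon receptor, fell from 129 ± 55.5 to 85.4 ± 40.0 CPM (SD, n = 6). Ifit1, which binds RNA without a host cap, fell by 0.48, the helicase gene Ddx60 by 0.42 and Nlrc5, known as a transactivator of MHC class I genes, by 0.41 on the log2 scale (edgeR adjusted p of the 4 genes from 8.82e-12 to 1.55e-07). With library totals alone the list was split, with 4 lower and 4 higher. Its median was then 0.05, beside 0.13 over all tested genes. Usp18, Ifit1, Ddx60 and Nlrc5 were still lower.

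Among 29 tested regulators and nucleases of DNA sensing, 5 were lower and 3 higher, with a median of 0.09. The shares over all tested genes were 6.03% and 2.72%. Trex1 encodes the cytosolic DNA exonuclease and fell by 0.48 on the log2 scale, from 93.1 ± 24.9 to 66.6 ± 18.2 CPM (edgeR adjusted p = 1.20e-08). Samhd1, which encodes a nucleotide triphosphohydrolase, fell from 1670 ± 278 to 1290 ± 211 CPM (-0.37, edgeR adjusted p = 1.75e-10), and Trim30a fell by 0.46. Pld3, the gene of a lysosomal exonuclease, rose by 0.19 on the log2 scale, a call that was lost without lavage 3. The other genes called higher on this list, named after their values were seen, were Dnase2a (log2 fold change 0.31, edgeR adjusted p = 0.0237) and Pld4 (2.03, edgeR adjusted p = 0.0212). Pld4 had 0.554 ± 0.979 CPM in TREM-1- libraries and was higher in 4 lavages and lower in 1. Both are nuclease genes too, whereas the nuclease gene Trex1 fell and Rnaseh2a, Rnaseh2b and Rnaseh2c were not called. With library totals alone 3 of this list were lower and 7 higher, beside 1.79% and 8.61% of all tested genes. The list's median was then 0.21, beside 0.13 over all tested genes.

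Of 22 tested signalling genes between the adaptors and interferon, 3 were lower, 1 higher and 18 neither, with a median of -0.04. Among all tested genes 6.03% were called lower and 2.72% higher. Irf7, the interferon-inducible regulatory factor, fell from 224 ± 94.6 to 175 ± 70.6 CPM (log2 fold change -0.34, edgeR adjusted p = 1.07e-08). Casp8 fell by 0.29 and the kinase gene Ikbkb by 0.19, and both calls were lost with library totals alone. Traf3, the gene of a ubiquitin ligase downstream of MAVS, rose by 0.13 on the log2 scale (edgeR adjusted p = 0.0397), a call made in 6 of 17 alternative analyses. Tbk1 and Irf3, the kinase and factor that MAVS and STING share, were picked for their place in the pathway after their values were seen. Tbk1 had 61.1 ± 6.06 and 60.9 ± 3.69 CPM (95% interval of the log2 fold change -0.11 to 0.11), and Irf3 had 33.2 ± 5.29 and 32.8 ± 2.82 CPM (-0.17 to 0.14) in TREM-1- and TREM-1+ libraries. With library totals alone 1 of the list was lower and 3 were higher, beside 1.79% and 8.61% of all tested genes.

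Of 16 tested genes from interferon receptors to ISGF3, 9 were lower and 0 higher, with a median of -0.12. These counts stand beside 6.03% and 2.72% of all tested genes. The receptor genes themselves, Ifnar1, Ifnar2, Ifngr1 and Ifngr2, were not called, with log2 fold changes from -0.08 to 0.03. The regulatory factor gene Irf1 fell by 0.29 and the feedback inhibitor gene Socs1 by 0.33 on the log2 scale (edgeR adjusted p = 1.37e-07 and 2.10e-07). Usp18 is on this list too. With library totals alone 5 of the 16 were lower and 1 higher, beside 1.79% and 8.61% of all tested genes. The list's median was then 0.01, beside 0.13 over all tested genes. Transcripts of the interferon genes on the list were too rare to test, and the list held no interferon alpha gene. Ifnb1, Ifne, Ifnl2 and Ifnl3 had 0 counts in all 12 libraries, where 3 counts, the limit that a count of 0 allows, correspond to between 0.141 and 0.348 CPM. Ifng had 29 counts over 5 libraries and Ifnk 15 over 5.

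The remaining arms are read beside 6.03% of all tested genes called lower and 2.72% called higher. With library totals alone these shares were 1.79% and 8.61%. In the arm of PKR and eIF2 1 of 17 was lower and 0 higher. The list's median was 0.01, and with library totals alone 1 was lower and 3 higher. In the ZBP1 and RIPK3 cell death arm 2 of 10 were lower, Casp8 and the caspase-8 regulator gene Cflar (fell by 0.15, a call made in 11 of 17 alternative analyses and lost without lavage 6). The median was -0.10, and 0 were lower and 1 higher with library totals alone. Of 12 genes of RNA editing and double-stranded RNA binding, Adarb1, which encodes another editing enzyme, rose by 0.64 on the log2 scale, from 4.47 ± 1.06 to 7.00 ± 1.68 CPM (edgeR adjusted p = 0.00806). That call was lost in lavages 1 and 2 alone, in lavages 3 to 6 alone and without lavages 3 and 4. Pnpt1, the gene of a mitochondrial RNA-degrading enzyme, fell by 0.30 (edgeR adjusted p = 0.0339, lost without lavage 1, 4 or 6). The median was 0.12, and 4 were higher and 0 lower with library totals alone. Of 9 endosomal sensors only Tlr13, a receptor for bacterial ribosomal RNA, was called, and it rose by 0.20 on the log2 scale from 133 ± 22.3 to 153 ± 25.2 CPM. The list's median was 0.20, and 1 was higher and 0 lower with library totals alone.

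**Figure D5:**
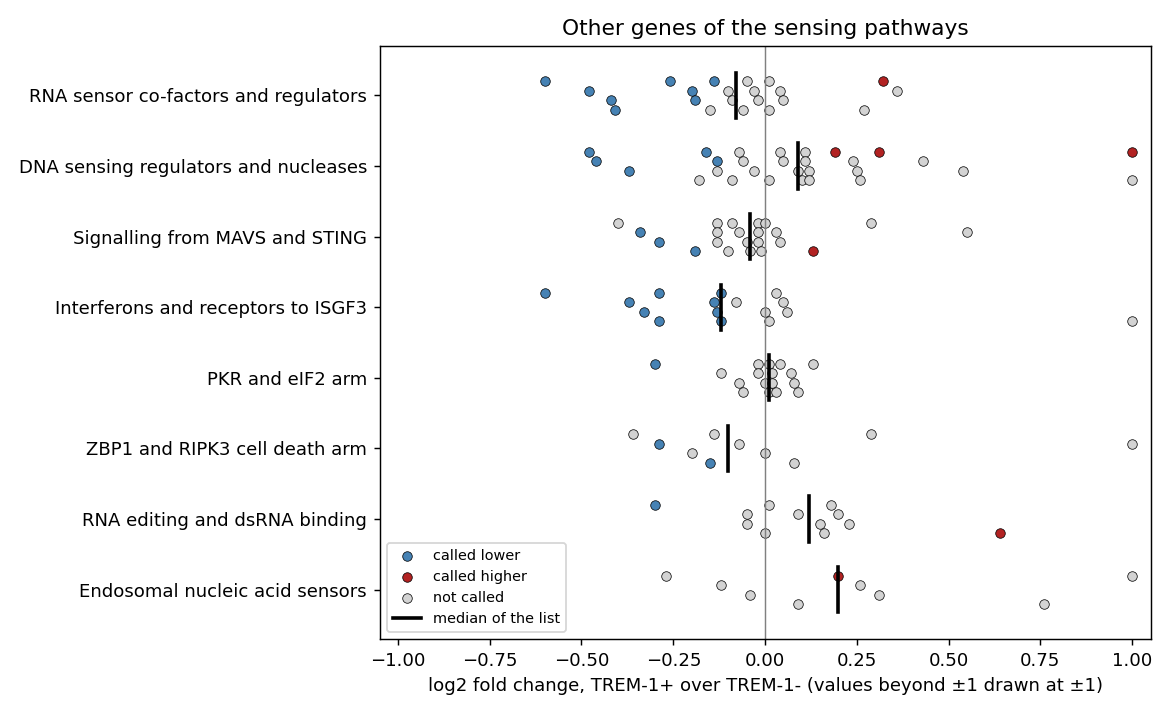
Log2 fold change between fractions (x axis) of each tested gene of the 8 pathway lists (rows), coloured by call, with the list median as a black bar; values beyond ±1 are drawn at ±1. Genes called lower are most frequent in the lists of RNA sensor co-factors (8) and of interferon receptors to ISGF3 (9). The interferon receptor genes themselves were not called.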

How the data were processed

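The labels' protocols describe ribosomal depletion and stranded paired-end sequencing (100 bp) in 1 lane for the 12 libraries, 2 sorted fractions from each of 6 lavages. The authors' deposited table gives an estimated count per gene, in whole numbers, so rounding changed nothing. A second deposited table holds log2 CPM for 17934 genes, which TMM scaling of the counts with a prior count of 1 gave back to within 5e-09. Tools in the submitters' processing notes are edgeR 3.42.4, kallisto 0.45.0 and R 4.3.0, the build there is GRCm39, and no roles are stated. The annotation and the use of strand in counting are not given in the sources used here. In GENCODE vM21, exons on the opposite strand overlap those of 4 of the 9 genes (Adar, Cgas, Dhx58, Eif2ak2), and of the overlapping genes found in the table Gm26637, opposite Eif2ak2, had 19.0 to 41.8 CPM and Chrnb2, opposite Adar, 2.18 to 4.54 CPM. Reads of such pairs may not be separated.

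The test was edgeR 4.0.16 (R 4.3.3) with TMM factors and a robust quasi-likelihood fit, after filterByExpr on the blocked design (minimum count 10, minimum total 15). Lavage was the block, and differences are TREM-1+ minus TREM-1-. The SE was derived from the F statistic. Paired differences use log2 CPM with a prior count of 1. Alternatives included limma 3.58.1 and DESeq2 1.42.0. No deposited per-sample column was left out (0 unused). A simulated data set held 99 genes changed by 0.5 and 96 by 1 on the log2 scale among 20136, fewer than were called here. There 13.56% of calls were false, above the nominal level, although 1% of unchanged genes had an unadjusted edgeR p below 0.01. Of the changed genes 44.4% and 60.4% were recovered. Calls near the threshold are thus less certain than their adjusted p says.

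Both fractions of a pair were sorted from 1 lavage, as the design text says. Deviations from the fraction means correlated within lavages 1 to 6 at 0.39, 0.39, 0.08, 0.27, 0.18 and 0.16. The TREM-1+ library of lavage 3 correlated best with the TREM-1- library of another lavage. In all other lavages the partner was the best match.

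The members and lists were chosen with earlier results of these data known. The genes named are the 9 members, the 4 called genes of smallest p in each pathway list, and the 3 genes most like each member. Of the genes this rule takes, 2 are not reported here.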

Additional observations from a re-analysis of the deposited data

Results flagged for a closer look

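In the 27 sets of 6 values examined (levels in each fraction and paired differences of 9 genes), 3 held a library or lavage far from the others, and chance alone puts about 1 in 20 sets there. Dhx58 had 106 CPM in the TREM-1- library of lavage 6, where the next highest value was 62.1 CPM. The paired log2 difference of Dhx58 was -0.94 in lavage 5, and the next was -0.54. That of Cgas was -0.73 in lavage 3, and the next was -0.21.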

How the results depend on the processing

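Rigi, Ifih1, Dhx58, Zbp1 and Eif2ak2 kept their direction in 17 alternative analyses and their call in 16, and Adar kept its call in 14. Mavs, Cgas and Sting1 were called in 0 of 17. Without the replicate block 83 genes, 0 of the 9 sensor genes and 0 of the other pathway genes were called. The log2 fold changes there were -0.39 for Rigi, -0.38 for Ifih1, -0.51 for Dhx58, -0.42 for Zbp1, -0.31 for Eif2ak2 and -0.15 for Adar, with edgeR adjusted p from 0.728 to 0.905. The SE of Rigi was then 0.19 in place of 0.03. With library totals alone Adar was at -0.02 and Sting1 at 0.06, and of all called genes 17.2% in place of 68.9% were lower. Lavages 1 and 2 alone put Adar at -0.13, and lavages 3 to 6 alone gave 1176 in place of 1803 called genes and put Sting1 at 0.00. Leaving out 1 lavage at a time, 6 of the 9 genes were called each time, and the largest edgeR adjusted p was 0.0116, for Adar. Without lavages 3 and 4, 22 in place of 34 other pathway genes were called. The test of lavages 1 and 2 against 3 to 6 called 2 genes, or 1 with library totals or with the filter by fraction (a filter chosen after seeing the data), 5 at a mean of at least 5 CPM, 16 with no filter, 55 without lavages 3 and 4, and 1 to 5 without single lavages, and 0 of the 9 sensor genes each time. Of the 20 named pathway genes 13 lost their call only without the block, and 0 changed sign. The causes were not tested. Mavs had the fewest counts and the widest interval of the 9.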
